A study of Drosophila melanogaster with 6 samples.

Results

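The transcripts described here are those of the normal adult male head of Drosophila melanogaster, the fruit fly, as measured on 3 Affymetrix expression arrays of wild-type males, of 6 arrays in the series. The 3 arrays were chosen by their labels, which call them wild-type male head replicates 1, 2 and 3 of the Oregon-R strain. The males were 2 to 5 days old, were raised at 25 °C and were decapitated on ice, and RNA was made from whole heads. They came from single-pair crosses of cm Sxlfp7BO ct/+ mothers and cm Sxlfp7BO ct/Y fathers, where Sxlfp7BO is a deletion of the sex determination gene Sxl and cm and ct are visible markers on either side of it. They are the brothers without the deletion, in a background made uniform by repeated backcrossing to Oregon-R. The other 3 arrays, of males with the deletion, were not used. The labels give no number of heads per sample and call the 3 samples biological replicates.

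A fly head holds the compound eyes, the brain with its neurons and glia, the antennae and other sense organs, muscles of the feeding apparatus, cuticle, and a layer of fat body, the insect counterpart of liver and fat. Photoreceptor cells of the eye turn light into current through rhodopsin, a G protein and ion channels, and arrestins end the signal. Fat body secretes storage, lipid carrier and defence proteins into the blood. In whole heads, fewer cells of a type and less RNA per cell cannot be told apart.

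Each array gave 1 linear intensity for each of 18769 probe sets that are not controls, and 13647 of these named 1 gene, 11953 genes in all. A gene is given here by its brightest probe set, and genes were ranked by mean intensity. The intensity of a probe set depends on its probes as well as on the RNA, so the order below is an order of hybridisation signal and not of molecules. Among the 1106 genes with more than 1 probe set, the brightest was a median of 3.89 times the dimmest. For the 151 of them in the brightest 10% that median was 23.7, and 94 of the 151 differed by over 10 times. COX7B, a subunit of cytochrome c oxidase, had probe sets at 4569, 2091 and 7.49. No difference between genes is tested, and the spread between the 3 arrays is the error given throughout.

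The 3 arrays gave similar distributions, with median intensities from 14.3 to 14.6 over probe sets and maxima from 10384 to 10502. Correlations between arrays on the log2(intensity + 1) scale were 0.995 for replicates 1 and 2, 0.995 for 1 and 3 and 0.997 for 2 and 3, across 18769 probe sets that share the arrays and are not independent. Replicate 1 stood apart from the others in defined groups of genes that are given below. The 100 brightest genes held 18.7% ± 0.213 (SD, n = 3) of the summed intensity of all named genes, the 10 brightest 3.08% ± 0.0233 and the 1000 brightest 60.9% ± 0.377. The median gene had an intensity of 48.6, and the brightest 10%, or 1196 genes, began at 480.9.

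Among the brightest named genes were genes known from the eye, the fat body and blood, the odorant-binding protein family, the ribosome and the respiratory chain. Of the 100 brightest, 38 were on none of the gene lists used below. Arr2, the main arrestin of photoreceptors, was the brightest, with 8787, 9517 and 9635 on replicates 1, 2 and 3. Arr1, the other arrestin, had 6696, 7628 and 7566 and was the eighth. Replicate 1 was the lowest for both, and the coefficient of variation (CV, the SD as a percentage of the mean) was 4.93% for Arr2 and 7.14% for Arr1. Pdh, a photoreceptor dehydrogenase of visual chromophore metabolism, had 7220, 7925 and 7388. The eye gene retinin had 6225, 6991 and 7126.

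Odorant-binding proteins are small secreted carriers of hydrophobic molecules, and 5 of the 100 brightest genes belonged to that family. Obp19d had 9331, 9389 and 9105 and stood beside Arr2 at the head of the order, with means that differed by less than the SD of Arr2 (460). The only probe set naming Obp19d is of a kind that may also bind other transcripts. Obp44a had 7146, 7283 and 7054. The 3 arrays lay close together for both. Obp99b was different: it had 6410, 4316 and 3928, a CV of 27.3%, with replicate 1 well above the others.

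Among secreted proteins, Lsp2, a storage hexamerin, had 8057, 7221 and 7350, and apolpp, the precursor of the main lipid carrier of insect blood, had 5660, 5744 and 5552. FASN1, the fatty acid synthase, had 5254, 5969 and 5645. The arrays differed little for these, with a CV of at most 6.37%. Nplp2 and Nplp3, named as precursors of neuropeptide-like molecules, averaged 8625 ± 248 and 6353 ± 628 (SD, n = 3). EbpIII, named for the male ejaculatory bulb, averaged 7141 ± 185 in these heads. Gs2, a glutamine synthetase, averaged 5565 ± 219, Pepck1, an enzyme of gluconeogenesis, 5309 ± 154, and sesB, which exchanges ADP and ATP across the inner mitochondrial membrane, 5299 ± 276.

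Several of the brightest genes have no descriptive name. CG17108 was the fourth with 8182, 8452 and 8083, and CG2233 the fifth with 8176, 7601 and 7625. In all 17 of the 100 brightest genes go by a CG number, against 5152 of all 11953 (43.1%). CG8343 (6840 ± 375), CG4716 (5797), CG8369 (5560), CG8329 (5081) and CG6503 (5008) were among the first 40. CG4716 has another probe set, which gave 5695. The 40 brightest genes also held a non-coding RNA, lncRNA:mimi, with 5400, 5293 and 4959. It was far above the other RNAs annotated as lncRNA or ncRNA, of which lncRNA:CR42862 (2415 ± 261) was next, followed by lncRNA:CR33942 (348 ± 66.3). Both were named after their values were seen.

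**Figure D1:**
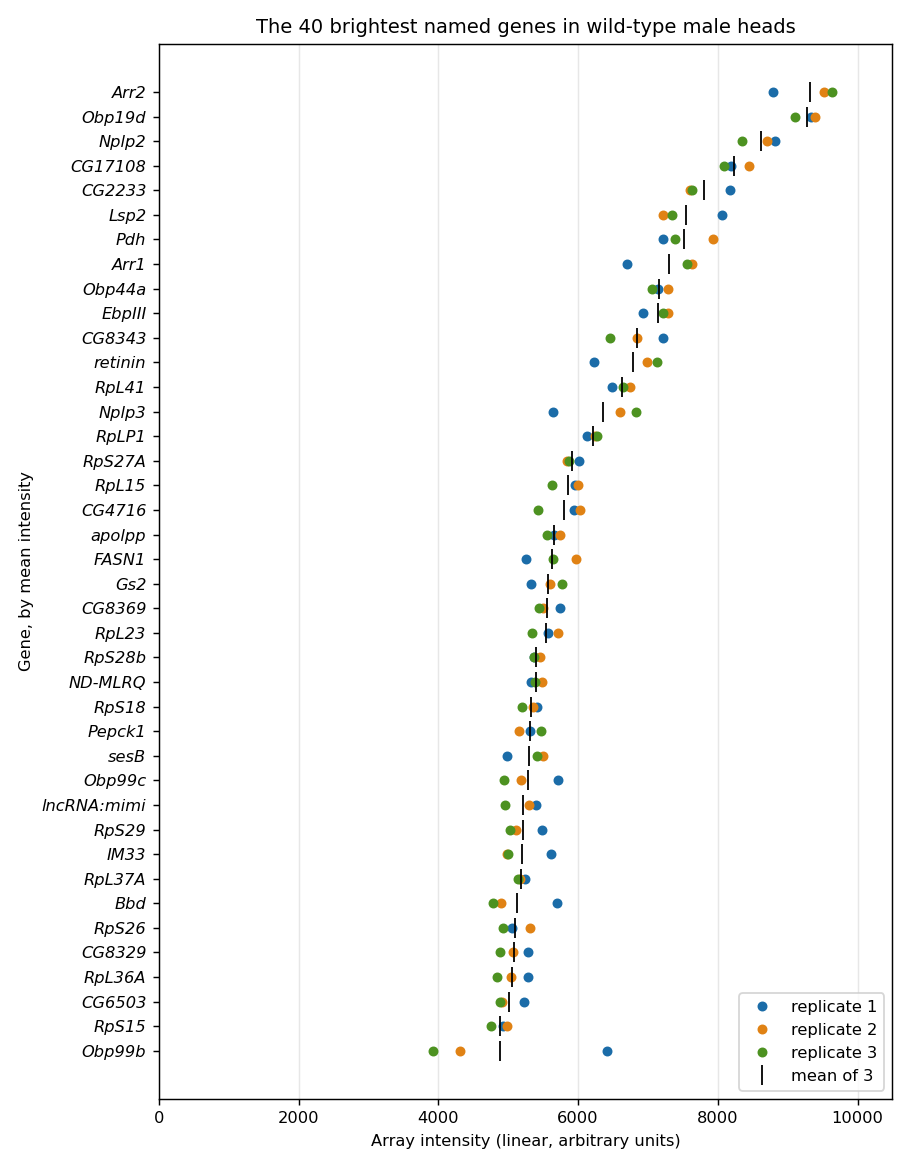
Array intensity (linear axis, arbitrary units) of the 40 named genes with the highest mean in wild-type male heads, 1 row per gene, with a point for each of the 3 arrays and a bar for their mean. The points of most genes lie close together, while those of Obp99b run from 3928 to 6410 with replicate 1 the highest.

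The order over named genes leaves out bright signals. Of the 100 brightest probe sets, 58 named 1 gene, 2 named several and 40 had no gene name in the annotation used here, while of all probe sets 72.7% named 1 gene. The brightest probe set of all, which names several genes, had 10384, 10252 and 10474. The next, without a name, had 9198, 10502 and 10182. The rhodopsin genes ninaE, which serves most photoreceptors, and Rh3 to Rh6, the synaptic gene Syt1, the glial gene Eaat1 and the myosin heavy chain gene Mhc had no probe set naming them alone and were not analysed here. Among the 100 brightest genes 26 were measured by probe sets ending in _s_at or _x_at, which may also bind other transcripts. Another 13 were measured by probe sets ending in _a_at.

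Functional classes are described by their members in the brightest 10% of genes, which is 10% of all genes by definition, and in the 100 brightest, which hold 0.837%. Of 15 phototransduction genes measured, 12 were in the brightest 10% and 4 in the brightest 100, and their median intensity was 1452 against 48.6 for all genes. After the arrestins came Gbeta76C, the beta subunit of the photoreceptor G protein, with 3716, 4372 and 4230, and the light-gated channel gene trp, with 2661, 3836 and 3578. Replicate 1 was again the lowest for both. The alpha subunit gene Galphaq averaged 2325 ± 290.3 (SD, n = 3), the calcium-binding protein gene Cpn 2258 and trpl, the other light-gated channel, 1779. The kinase gene inaC and the scaffold gene inaD, whose products sit in 1 complex with the channel, averaged 1452 and 1098. The lipid transfer gene rdgB averaged 1056 and the phosphatase gene rdgC 647. The lowest members were Calx, an exchanger of sodium and calcium, at 326, and inaE, a diacylglycerol lipase, at 322. Replicate 1 was the lowest array for 14 of the 15, against 38.2% of all genes and 42.1% of the brightest 10%.

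Other eye genes covered a wide range. The rhabdomere and lens list had 3 of 6 measured genes in the brightest 10%, with chp, a surface protein of photoreceptors also known as chaoptin, at 2438, 3283 and 3512, and the lens protein gene Cpr72Ec at 1727 ± 211. Its lowest member was prom, at 34.2. Of 6 chromophore genes 3 were in the brightest 10%, Pdh, santa-maria (773), which encodes a carotenoid scavenger receptor, and ninaB (763), which cleaves the carotenoid. Of 17 eye pigment genes 5 were there. The brightest were VhaAC39-1 (1170), cl (804), Pu (657), the enzyme that opens the pteridine pathway, and pr (643). The white partner genes st and bw, pigment precursor transporters, lay at 84.0 and 138, and cn, which encodes an enzyme of brown pigment synthesis, was at 4.63, among the lowest signals of the arrays. Of 12 genes of histamine and monoamine transmission 3 were in the brightest 10%: t, which frees histamine from its conjugate (1729), lovit (541) and Ddc (520). Hdc, which makes histamine, the photoreceptor transmitter, averaged 459.

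Nerve cell genes were of middle to high signal. Of 21 synapse and neuron genes 13 were in the brightest 10%, none was in the brightest 100, and their median was 600.3. Snap25, a protein of synaptic vesicle fusion, had 2601, 2872 and 2585, and Gad1, which makes the inhibitory transmitter GABA, had 2407, 2582 and 2586. The arrays lay close together for both. The fusion clamp gene cpx averaged 2397 and unc-13, a vesicle priming factor, 1950. ChAT, which makes acetylcholine, averaged 587 and its vesicular transporter gene VAChT 369. The lowest members were the sodium channel gene para at 70.8 and VGlut, the glutamate transporter gene of vesicles, at 43.9. The neuron marker elav had 344, 430 and 427, and the active zone gene brp had 81.5 on the brightest of its 4 probe sets and 6.46 on the dimmest. Of 25 neuropeptide precursors 7 were in the brightest 10%. Below Nplp2 and Nplp3, Ms, the myosuppressin gene, averaged 1197 ± 50.2, the insulin-like Ilp2 858 and CCHa2 657. Pdf, a peptide of clock neurons, averaged 455. At the low end were CCAP at 8.57 and amn at 4.35. Of 15 glial genes 7 were in the brightest 10%, led by Gs2 and fabp (4282), a fatty acid binding protein. The glial marker repo had 328, 442 and 381, and replicate 1 was the lowest for both elav and repo.

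All clock genes measured lay above the median gene. Of 9 measured, 4 were in the brightest 10%. The clock gene tim was the highest, with 1469, 1557 and 1789, followed by Pdp1 (818), the blue light receptor gene cry (692) and the kinase gene dco (545). The lowest were per (112) and Clk (112). The other probe set of tim averaged 205. Without probe sets ending in _s_at, _x_at or _a_at, 4 of the 9 genes were left, 1 of them in the brightest 10%. Transcripts of tim and per cycle through the day, and the labels give no hour of collection.

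Ribosomal protein genes formed the largest class among the 100 brightest, with 26. Of 41 names that follow the pattern of cytosolic ribosomal proteins 31 were in the brightest 10%, with a median of 4047, and together the 41 gave 5.24% ± 0.0817 (SD, n = 3) of summed intensity. RpL41 had 6486, 6741 and 6640, RpLP1 6124, 6249 and 6266, and RpS27A, which is fused to ubiquitin, 6020, 5836 and 5871. The table of RefSeq genes holds another 52 protein-coding names of this pattern that were not analysed here, so the count and the share are of part of the class. Spread was small in this class, with a median CV of 2.50% against 7.16% for all genes. The remaining 10 names were below the brightest 10%. RpL7-like and RpLP0-like had 385 and 68.2, above the median of all genes (48.6). RpS5b, RpL37-2, RpS28a, RpS10a, RpL22-like, RpL10Aa, RpS28-like and RpS19b were all below 10. Those 8 are named as copies of ribosomal protein genes, and RpS5b, RpS19b and RpL22-like are known from the germ line. The 6 translation factors measured were all in the brightest 10%, from eEF1alpha2 (4263), an elongation factor, to eIF3e (719). Many of these genes are measured only by probe sets ending in _s_at, _x_at or _a_at: without such probe sets 27 of the 41 ribosomal names were left, with 15 in the brightest 10%, and 1 of the 6 translation factors, which was there. Mitochondrial ribosomal proteins were far dimmer: 3 of 69 were in the brightest 10%, the median was 174, and mRpS5 was the highest at 925.

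Genes of energy metabolism came next. Of 71 names of respiratory chain and ATP synthase subunits 49 were in the brightest 10% and 9 in the brightest 100, with 4.08% ± 0.0417 of summed intensity. ND-MLRQ averaged 5394 ± 81.8, ATPsynbeta 4744 ± 200, ATPsynF 4576 and COX7B 4569. Of the 71, 18 carry the letter L of a copy at the end of the name, and 17 of these 18 were below 15, with COX7AL2 at 737 the exception. The other 53 had a median of 1528, and 1 of them was also below 15, at 6.31. The proteasome, which degrades tagged proteins, showed a division without such exceptions. Its 26 standard subunits ran from 196 to 683, led by Prosbeta3, and all 14 copies with T or R in the name were at or below 10.9. Several of the proteasome copies are known as testis subunits. Of 10 genes on the glycolysis list 9 were in the brightest 10%, led by Eno (3130), Gapdh1 (3056) and Tpi (2724). Gpdh1, a glycerol-3-phosphate dehydrogenase beside the main pathway, was next at 2246. The list member outside the brightest 10% was Pglym78 at 74.7. Without probe sets ending in _s_at, _x_at or _a_at, 4 genes of the glycolysis list were left, 3 of them in the brightest 10%. Gpdh1 had 3 further probe sets, from 441 to 1418.

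Muscle genes were also bright, with 9 of 17 in the brightest 10%. Argk1, the arginine kinase that buffers ATP, averaged 4467 ± 145. It is also expressed outside muscle. Mf, which encodes myofilin, averaged 2997 ± 338, the light chain genes Mlc1 and Mlc2 1109 and 721, the giant protein gene bt 813, and Act88F, an actin known from flight muscle, 465 ± 20.2. The calcium sensor gene TpnC4 and the flight muscle gene fln were low, at 13.3 and 48.0. Replicate 1 was the lowest array for 14 of the 17, against 38.2% of all genes.

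Fat body and blood genes split into high members and members near the floor. Of 13 measured, 10 were in the brightest 10% and 5 in the brightest 100. After Lsp2, apolpp, FASN1 and Obp99b came Tsf1, an iron-binding transferrin, at 4885, 4422 and 4311. The gene fit, known as a female-biased gene of head fat body, averaged 2498 ± 286 in these males. The members Fbp1, Fbp2 and mag were at 8.34, 7.64 and 7.19. Fbp1 encodes the receptor for storage proteins of the larva, while Lsp2, a storage protein named for larval serum, was the sixth gene of the whole order.

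Bomanins are short secreted peptides of the Toll immune response, and all 8 measured were in the brightest 10%, from BomS4 (482) to BomBc2 (3497, 2860 and 2853). BomS4 lay just above the lower edge of 480.9, and without replicate 1 the count was 7 of 8. BomS6 averaged 2843, BomS2 2308 and BomT3 2029. Bbd, a gene needed for Bomanin action, averaged 5124 ± 502, and IM33, an immune-induced molecule, 5197 ± 364. Replicate 1 was the highest array for all 8 Bomanins, against 37.3% of all genes. Their median CV was 7.51%, against 5.22% in the brightest 10%. Of 6 antimicrobial peptide genes 3 were in the brightest 10%, and their median CV was 74.9%. Mtk, metchnikowin, had 2472, 718 and 256. DptB, a diptericin, had 1382, 443 and 128. Drs, drosomycin, had 622, 410 and 453. Without replicate 1, only 1 of the 6 was in the brightest 10%. Of 7 genes named for recognition of peptidoglycan, a part of bacterial cell wall, only PGRP-SB1 was there, with 2272, 1468 and 1099. Of 5 Turandot stress genes only TotC was there, with 3214, 1657 and 1166, and the other 4 were below 10, from TotE (6.22) to TotB (9.94).

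Of 13 heat shock protein genes 4 were in the brightest 10% and 3 were below 10. Hsc70-4, a chaperone made without heat shock, averaged 4569 ± 122, Hsc70-3 1548, Hsc70-5 1258 and Hsp60A 1187, while Hsp68 and Hsp26, which heat shock induces, were at 54.9 and 37.2. Enzymes of detoxification were spread over the whole range. An intensity below 10 was seen for 3766 of all 11953 genes (31.5%). Of 81 cytochromes P450, oxidases of foreign compounds, fats and hormones, 13 were in the brightest 10% and 14 (17.3%) were below 10. The highest were Cyp313a1 (4224 ± 97.7), Cyp28d1 (3775), Cyp6d5 (2310) and Cyp6g1 (2167). Of 34 glutathione transferases 11 were in the brightest 10% (8 without replicate 1), led by GstE12 (3134 ± 31.0), GstD1 (2405) and GstE9 (1905), whose other probe set gave 13.5. Of 35 UDP-glycosyltransferases 1 was, Ugt35B1 at 626. Of 90 cuticle protein genes 4 were, led by Cpr65Au (3555 ± 133), and 48 (53.3%) were below 10, against 31.5% of all genes.

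Odorant-binding protein genes spread over the whole range. Of 47, 13 were in the brightest 10% and 19 (40.4%) were below 10, and their median was 25.5, against 48.6 for all genes. Chemosensory receptor genes were dim. Of 166 odorant, gustatory and ionotropic receptor genes none was in the brightest 10% and 146 (88.0%) were below 10, with a median of 6.38. The highest was Orco, the co-receptor of most odorant receptors, with 181, 194 and 204. After it, Ir76a, Or43b and Ir68a were at 38.4, 33.4 and 30.1. Most receptors are known from small groups of sense cells. Their median was close to that of the genes of other organs, 6.90.

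**Figure D2:**
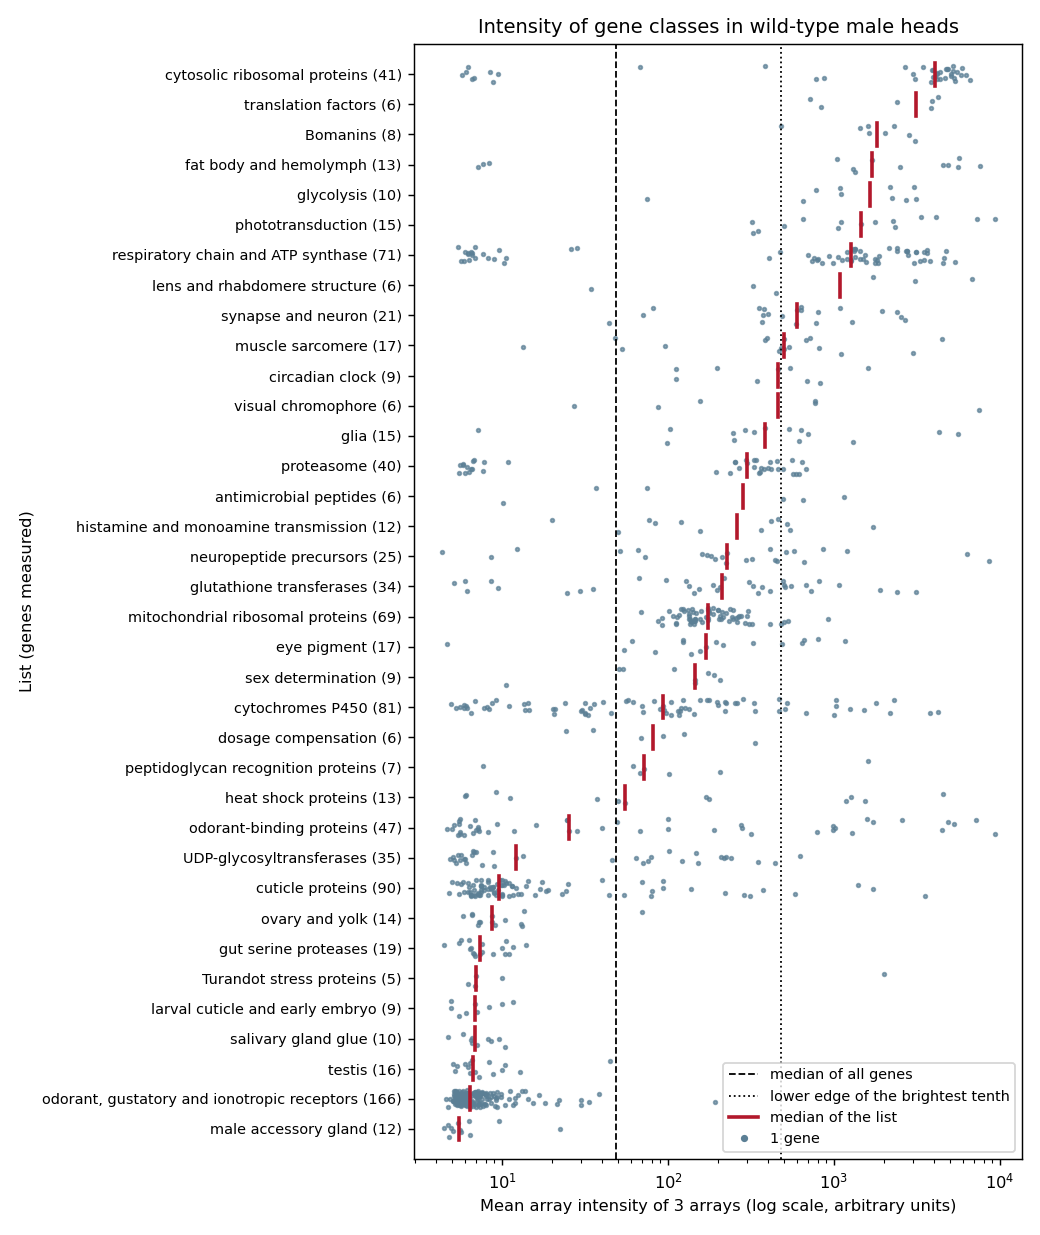
Mean intensity over 3 arrays (log axis, arbitrary units) of the members of 36 gene lists in wild-type male heads, 1 point per gene, with the list's median as a bar and lines at the median of all genes (48.6) and at the lower edge of the brightest 10%. Ribosomal proteins, with a median of 4047, stand at the top, and accessory gland, receptor, testis and salivary gland lists have medians from 5.53 to 6.85.

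The labels of tissue and sex were set against markers of other organs. The 6 lists for testis, male accessory gland, ovary and yolk, salivary gland, gut, and larva and embryo held 80 measured genes with a median of 6.90, and 62 of them (77.5%) were below 10, against 31.5% of all genes. None was in the brightest 10%. The testis markers Mst87F, dj and janB, the accessory gland markers Acp26Aa, Acp36DE and Acp63F, the ovary markers Cp36 and Vm32E and the salivary gland marker Sgs3 were all below 10. The highest of the 80 were Yp3, a yolk protein gene, with 58.4, 63.5 and 85.9, and mia, a testis gene, at 44.6. The other yolk protein genes were low, Yp1 at 9.09 ± 1.40 and Yp2 at 7.15 ± 0.290. The 8 genes of the Y chromosome measured, most of them known for sperm function, ran from 4.44 to 6.74. The 95th percentile of the 80 genes, 13.6, was exceeded by 7706 of all genes (64.5%), and by 7543 on every array. Their highest mean, that of Yp3 alone (69.3), was exceeded by 5276 (44.1%). Whether Yp3 is limited to organs outside the head was not tested.

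Genes of sex determination and dosage compensation, the doubling of X-linked transcription in males, were well below the brightest 10%. Sxl had 159, 205 and 206 on its brightest probe set, with means of 155 and 97.8 on its others, and these males carry the gene. The splicing regulators tra and tra2 were at 145 and 145, dsx at 109, and fru, which directs male courtship, at 205 ± 40.7 on the brightest of 7 probe sets. The other 6 ran from 8.92 to 56.6. Clamp, which binds the X, averaged 333, the RNA helicase gene mle 125, and msl-2, the male-limited subunit of the compensation complex, 93.7. The male RNAs roX1 and roX2 were not analysed here.

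Chromosomes were compared because the order did not use them. Chromosome 4, the smallest, had the highest share of bright genes. Of its 65 genes measured, 22 (33.8%) were in the brightest 10% and none was below 13.6, and their median was 299 against 47.5 for the 9980 genes of chromosomes 2 and 3. When the ranking was limited to the brighter 60% of all genes, 19.7% of its genes left there were in the brightest 10% of those. That class is smaller than the one above, and no share for other chromosomes was computed for it. The chromosome holds apolpp and ATPsynbeta, the synaptic gene unc-13, and PMCA, a calcium pump, at 1323. PMCA was chosen after its value was seen. Genes of the X had a median of 52.8, but 8.73% in the brightest 10%, against 10.1% for chromosomes 2 and 3, and among genes above 13.6 the X had a lower median, 111 against 128. The X was therefore higher or lower depending on whether dim genes were counted.

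**Figure D3:**
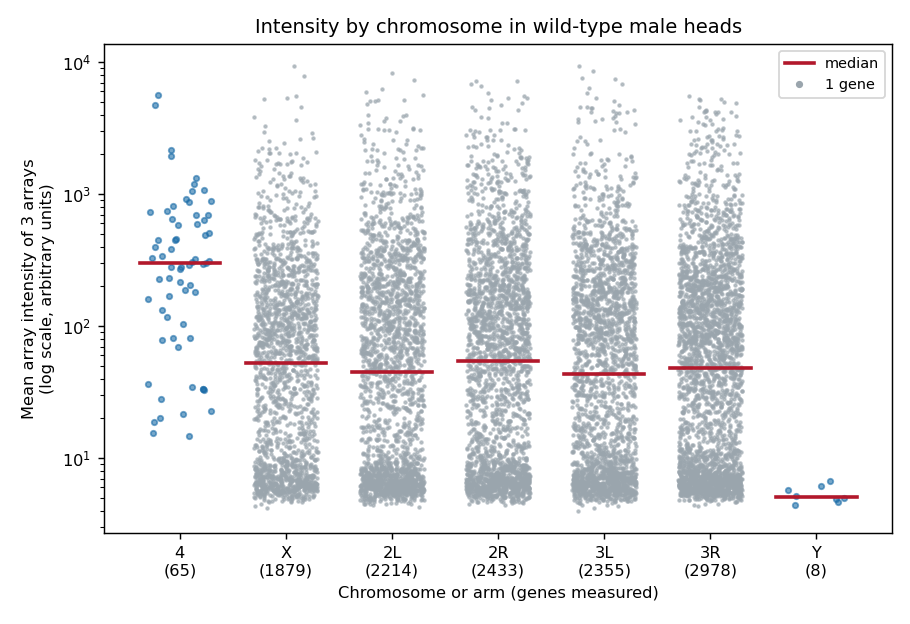
Mean intensity over 3 arrays (log axis, arbitrary units) of each named gene by chromosome or arm in wild-type male heads, with the median as a bar. Chromosome 4 has a median of 299, the X and the large arms lie between 43.1 and 54.1, and the 8 Y genes lie at the floor.

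The arrays agreed closely for most bright genes. The median CV was 3.61% in the brightest 100 genes and 5.22% in the brightest 10%, and it was highest, at 9.32%, among probe sets with means between 8.34 and 14.5. Among the brightest 10% the highest array exceeded the lowest by more than 1.5 times in 28 genes (2.34%) and by more than 2 times in 7. The median SD of log2(intensity + 1) over the brighter 50% of probe sets was 0.0963. It was 0.0581 without replicate 1, and 0.0869 and 0.0912 when either of the other arrays was left out instead. These SDs are over fewer arrays than 0.0963, so they can be compared with each other but not with it. The steadiest genes were ATPsyndelta, with 1863, 1863 and 1864, Gyf with 693, 691 and 692, and Qsox1 with 826, 828 and 829, followed by RpS20, CG7530 and eIF3g1.

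The 12 genes of the brightest 10% with the largest spread were led by immune genes. That class was set by the mean, so a gene raised on 1 array can enter it and then show a large spread. DptB was below the lower edge of the class, 480.9, on replicates 2 and 3, and Mtk was below it on replicate 3. DptB (SD 1.71 on the log2(intensity + 1) scale) and Mtk (1.63) came first, and TotC (0.74) and PGRP-SB1 (0.53) were also among them, all with replicate 1 the highest. CG34324 had 298, 1601 and 1903, and CG14645 had 501, 2413 and 2246. Both went the other way, with replicate 1 the lowest, as did CG7214 (645, 1416 and 1420) and Obp56g (1094, 1857 and 1819). For igl (489, 853 and 546), which encodes a calmodulin-binding protein, replicate 1 was also the lowest, but replicate 2 stood apart. Gnmt, which methylates glycine, had 2386, 1198 and 1537, and smp-30 had 1081, 571 and 725, with replicate 1 the highest. For CG5953, with 931, 1158 and 627, replicate 1 lay between the others.

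Below the brightest 10% the contrast was sharper in some genes, and those newly named in this paragraph were chosen after their values were seen. In 27 genes of any level the highest array exceeded the lowest by more than 4 times. DptB, Mtk, CG34324 and CG14645 of the brightest 10% were among the 27. Replicate 1 was the lowest in 19 of the 27, against 38.2% of all genes, and the highest in 6, against 37.3%. Muc68D, a mucin gene, had 9.49, 653 and 547, and CG14125 had 12.4, 302 and 318. The chitinase genes Cht8 (8.94, 81.7 and 58.8) and Cht9 (13.7, 73.4 and 48.8) showed the same order. In the other direction, Diedel, an immune-induced secreted factor, had 818, 17.1 and 14.4, and lectin-24A, a lectin gene, 64.2, 6.65 and 8.19. Replicate 1 was near the floor for the first 4 of these genes and clearly above the others for the last 2.

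**Figure D4:**
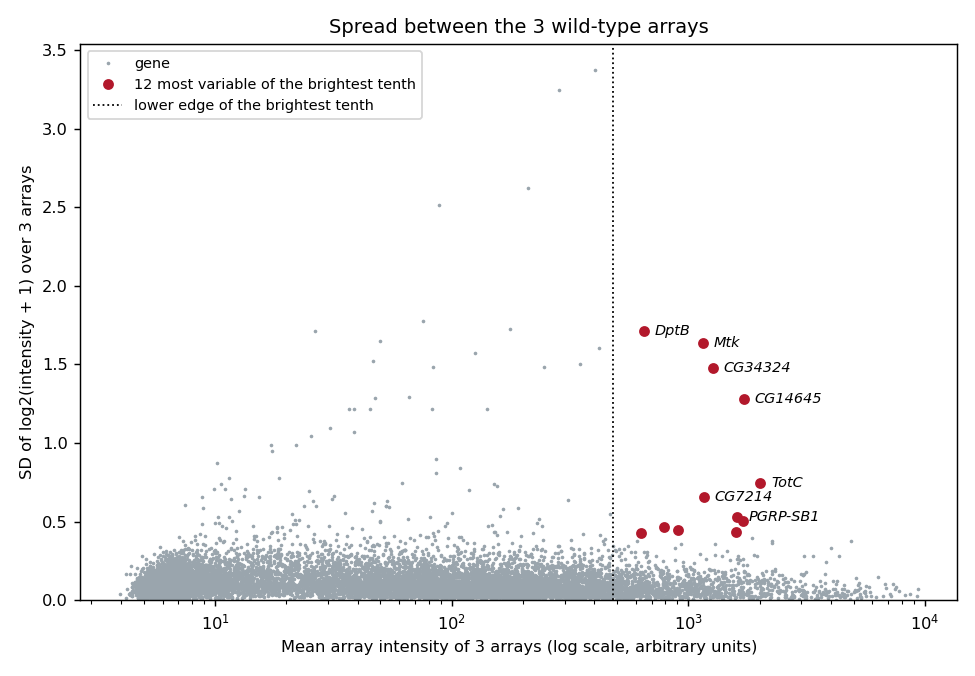
SD of log2(intensity + 1) over the 3 wild-type arrays against mean intensity (log axis, arbitrary units), 1 point per gene, with the 12 most variable of the brightest 10% in red and the first 7 named. Most genes lie near the bottom, DptB and Mtk lie at 1.71 and 1.63, and some dimmer genes lie higher, up to Muc68D at 3.37.

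Replicate 1 was the array farthest from the other 2 for 662 of the 1196 genes of the brightest 10% (55.4%), against 251 and 283 for replicates 2 and 3. Its difference from the mean of the others, on the log2 scale, had a median of -0.30 over the 15 phototransduction genes, -0.25 over the 6 lens and rhabdomere genes, -0.27 over the 17 muscle genes, -0.32 over the 9 clock genes and -0.14 over the 21 synapse and neuron genes. It was 1.00 over the 6 antimicrobial peptide genes, 0.16 over the 8 Bomanins, 0.12 over the 34 glutathione transferases and 0.11 over the 13 fat body genes. Over all genes the median was 0.00, over ribosomal proteins 0.02 and over the respiratory chain 0.02. Replicate 1 was the lowest array for 17 of 21 synapse and neuron genes, against 38.2% of all genes, and the highest for 10 of 13 fat body genes, against 37.3%. Summed over the fat body list the intensities were 39000, 35056 and 34377, and over phototransduction 31849, 38446 and 38262. The lists and the array in this comparison were chosen after their values were seen, and the genes of a list share the arrays.

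The ratio of 3' to 5' signal, which reflects RNA integrity and labelling, was 2.99, 3.52 and 3.63 for actin, 3.61, 3.62 and 3.80 for GAPDH and 3.55, 3.73 and 4.08 for eIF-4a on replicates 1, 2 and 3. It was lowest on replicate 1 for all 3 controls, set apart from both other arrays for actin, while for GAPDH and eIF-4a replicate 1 lay closer to replicate 2 than replicate 3 did. Its part in the differences between arrays was not tested. The labels do not say whether the samples differed in age within the range given, in hour or in dissection.

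**Figure D5:**
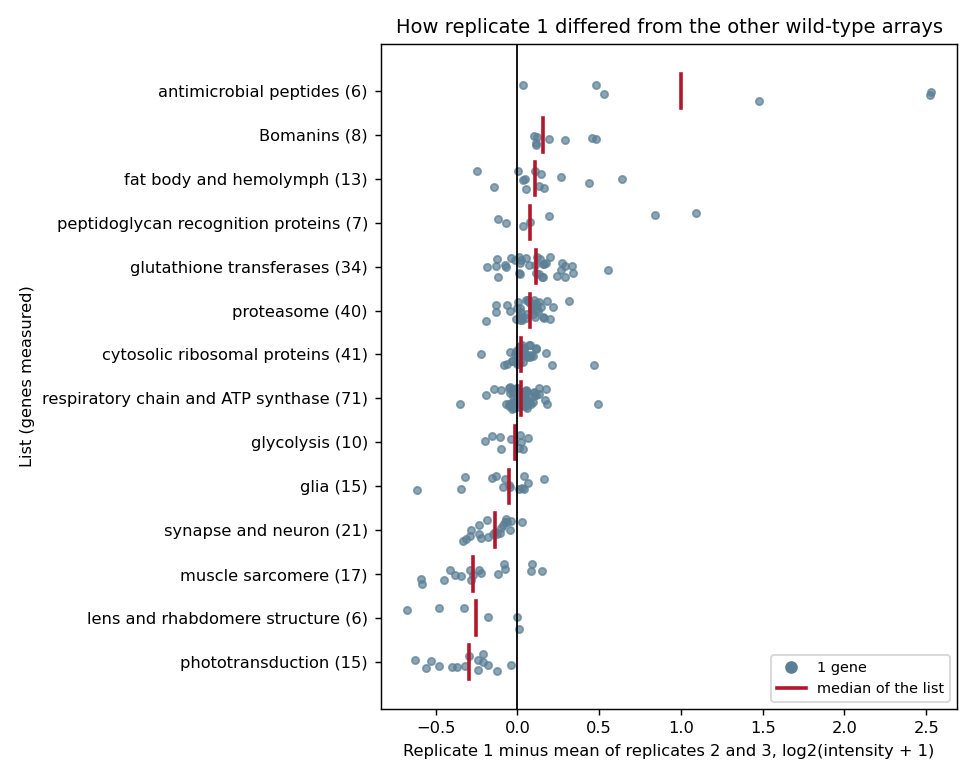
Log2(intensity + 1) on replicate 1 minus the mean of replicates 2 and 3 for members of 14 gene lists in wild-type male heads, 1 point per gene, with the list's median as a bar. Antimicrobial peptides lie to the right, with a median of 1.00, phototransduction genes to the left, with a median of -0.30, and ribosomal and respiratory genes around 0.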

How the data were processed

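Biotin-labelled cRNA from whole male heads was hybridised to Affymetrix arrays, per the labels' protocols. The authors deposited 1 linear intensity per probe set and array, in arbitrary units. How probes were summarised, corrected for background and normalized is not stated in the labels or the header, and no further normalization was applied. With 3 arrays, precision is limited by their number. Only the 3 wild-type columns were read, and 183 control probe sets of 18952 were dropped. The platform's annotation paired 13647 probe sets with 1 gene, left 402 with several and 4720 unnamed. Symbols were brought up to date with RefSeq's gene list for Release 6 plus ISO1 MT, by Entrez number for 13544 probe sets and by symbol or synonym for 91, while 12 kept the old symbol. The same list gave chromosomes.

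Values were computed with Python 3.11.15 and pandas 2.3.3. SD and CV are over the 3 arrays, and log2 values have a pseudocount of 1. No test was made, since there is 1 group. The calculation of ranks and spreads was tested on simulated arrays. The members and the 37 lists, 36 with a measured gene, were chosen with earlier results of these data known. Families were taken by the pattern of their names, and 1 pattern was narrowed after it had caught a cyclophilin among cytochromes P450.

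The genes named are the 40 brightest, up to 4 brightest per list, the 12 most and 6 least variable of the brightest 10% and a set of fixed markers. Other list members named for low values or for their place in a class were chosen after their values were seen. Alternatives were the summary over a gene's probe sets, the removal of probe sets ending in _s_at, _x_at or _a_at, and quantile normalization. Subtraction of a control level and leaving out each array were also tried. Protein and promoter sequences were not used here, so the planned look at sequence features was not run.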

Additional observations from a re-analysis of the deposited data

How the results depend on the processing

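No paired analysis was possible because 1 group was described and no result comes from a test. The use of all probe sets in place of named genes, the higher bound for other organs, the bound itself under other settings, and the list count without 2 classes were added after the data were seen.

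Of the 100 brightest genes 99 were kept without any single array, 100 with quantile normalization, with the mean of log2 values and with the median, 94 with the median of a gene's probe sets, 61 without probe sets ending in _s_at, _x_at or _a_at, and 56 among all probe sets, named or not. Their share of summed intensity, 18.7%, was 19.5% with the median of a gene's probe sets and 24.7% without probe sets of those endings. It was 16.5% over all probe sets and 19.2% after subtraction of the median of 3 unspiked bacterial controls (5.31). The median SD on the log2 scale over the brighter 50% of probe sets, 0.0963, was 0.0752 in the brightest 10%. With single arrays left out it was from 0.0581 to 0.0912, lowest without replicate 1. Those SDs are over fewer arrays, so the drop from 0.0963 cannot be put down to the array left out.

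The 64.5% of genes above the bound from other organs were 63.5% with the median of a gene's probe sets. They were 59.1% without probe sets ending in _s_at, _x_at or _a_at, and 44.1% above the highest member, Yp3. The log2 ratio of the X median to that of chromosomes 2 and 3, 0.15, was 0.095 with the median of a gene's probe sets, from 0.14 to 0.15 with single arrays left out (0.143 to 0.154), and -0.22 among the brighter 60% of genes, where it changed sign because dim genes were removed. The share of genes of chromosome 4 in the brightest 10%, 33.8%, was 35.4% with the median of a gene's probe sets. Among its genes left in the brighter 60% of all genes, 19.7% were in the brightest 10% of those, a smaller class.

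In every setting tried 25 of 36 lists had a median above that of all genes. Of the list counts in the brightest 10%, 1 moved by more than 1.5 times without replicate 1 (antimicrobial peptides, 1 in place of 3) and none without another array. Without probe sets ending in _s_at, _x_at or _a_at, where fewer genes were measured, 14 moved. With the brightest 5% as the class 13 moved, and with the brightest 20% 10 moved. Proteasome genes counted 7 in the brightest 10%, 0 in the brightest 5% and 25 in the brightest 20%, and mitochondrial ribosomal proteins 3, 0 and 19. The median SD on the log2 scale was largest, 0.127, for probe sets between 14.5 and 41.6.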
